A study of Arabidopsis thaliana with 24 samples.

Results

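The response of stop1 roots to aluminium was examined as the difference between stop1 seedlings in the +Al medium and stop1 seedlings in the -Pi_pH5 medium. The comparison takes 4 of the 24 libraries of the series, 2 biological replicates per medium, chosen by genotype and medium alone, and covers all 20450 genes of the deposited table. Both media held 0 mM Pi at pH 5 for 16 h, so that AlCl3 is the labelled difference between them. The labels give AlCl3 as 100 µM while the study's methods give another concentration, and the dose is therefore uncertain. The stop1 line is a T-DNA insertion mutant in the Col-0 ecotype, the single allele SALK_114108, and each replicate is RNA from root tip sections of about 10 mm pooled from many seedlings. Wild-type (Col-0) libraries from the same pair of media, 4 in number, served as the reference genotype, and the other 16 libraries entered only the estimate of the spread between replicates.

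Below about pH 5, aluminium in soil dissolves as a trivalent cation that binds cell walls and membranes of the root tip and arrests root growth. STOP1 is a zinc finger transcription factor that activates genes of aluminium exclusion, foremost ALMT1, which encodes a malate channel. Organic acids bind aluminium outside the root, and roots that lack STOP1 activity grow poorly on acid media and on media with aluminium. The comparison asks which genes respond to aluminium when this regulator is impaired.

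Expression is given as CPM, read counts that the authors scaled to the depth of each library and to trimmed mean of M-values (TMM) factors, always with replicate 1 before replicate 2. The stop1 libraries of the comparison held 19744037 to 21774148 reads on genes, so that 1 read corresponds to 0.0459 to 0.0485 CPM. The STOP1 transcript was at 46.6 and 57.8 CPM in stop1 -Pi_pH5 and 31.6 and 35.8 CPM in stop1 +Al, below the 125 and 149 CPM and 108 and 135 CPM of the wild-type libraries in those media. Reads on an insertion allele do not show how much intact transcript is made. Whether reads were counted by strand is not given in the sources used here, so that levels are uncertain wherever a gene and its neighbour overlap. Of the genes named below this holds for STOP1, OCT1, NAC042, AIR1, AT4G12545, ATL15, HA7, HA4, DGR2, ALS3, GDH1, ABCI17, XTH15, EMB2757, AT5G01720, PGIP1, CYP71A13, ASA1, WRKY33, GSTU10, ESB1, CASP1, CALS1, RWP1, EXPA7, RBOHB, IREG2, FER1, FER4, PAP17, LPR1, APR1, APR3, HSFA3, RAB18, ADH1, EXPA18, SARD1, AT1G77330, FRK1, APG9, GSL8, SRG3, FAR4, WRKY69, AT4G25090, ABI1, AIL6, HSF3, PER64 and PMEPCRF. As a check of the tissue, the root regulators SHR, at 35.1 and 34.5 CPM without and 39.1 and 41.5 CPM with aluminium, and PLT1, at 12.1 and 13 CPM without and 10.5 and 13.2 CPM with it, were present in all 4 libraries. Genes of the photosystems, light-harvesting complexes and Rubisco small subunit, 37 in number and markers of green tissue, summed to 106.3 and 193.3 CPM in stop1 -Pi_pH5 and 106.4 and 106.2 CPM in stop1 +Al.

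Aluminium changed the level of 6337 genes in stop1, 31.0% of those measured. With limma on log2(CPM + 1) and Benjamini-Hochberg adjustment over all genes, 3142 genes were upregulated (15.4%) and 3195 were downregulated (15.6%) at an adjusted p below 0.05. In each of them both +Al libraries lay beyond both -Pi_pH5 libraries. The change reached 1 on the log2 scale for 1197 upregulated and 1251 downregulated genes, and 2 for 321 and 328. Which direction held more genes depended on the scaling, since 3630 were upregulated and 2831 downregulated without TMM factors. Without stop1 +Al replicate 1 the upregulated genes numbered 2036, and without stop1 +Al replicate 2 the downregulated genes numbered 2109. The pseudocount of 1 makes the log2 fold changes understate the change of genes below a few CPM.

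**Figure D1:**
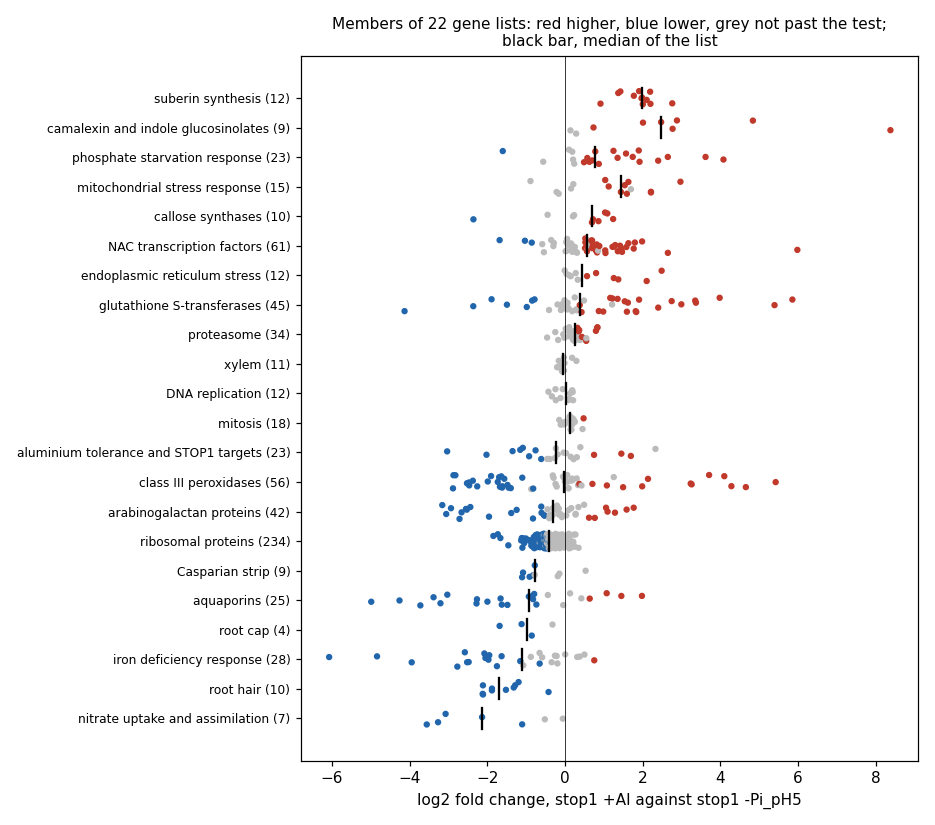
Log2 fold change of stop1 +Al against stop1 -Pi_pH5 (x axis) for the members of 22 gene lists (y axis, number of genes tested in brackets), with 1 point per gene, red for upregulated, blue for downregulated, grey for genes that did not pass the test, and a black bar at the median of each list. All 12 suberin genes are red, all 10 root hair genes are blue, and the 11 xylem and 12 DNA replication genes are grey.

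The 12 genes with the largest rise encode a cytochrome P450, oxidases, a peroxidase, glutathione transferases, a transcription factor, a transporter, a methyltransferase, a wall protein and a defence marker. CYP71A12, a cytochrome P450 that converts indole-3-acetaldoxime in the synthesis of indole defence compounds, was at 6.61 and 2.35 CPM in stop1 -Pi_pH5 and 1580 and 1775 CPM in stop1 +Al. Its mean level was 374-fold higher with aluminium (log2 fold change 8.37 ± 0.48 SE, n = 2 per medium, limma adjusted p = 2.05e-09). Both treated libraries were far above both controls. In wild-type CYP71A12 rose as well, from 1.27 and 2.81 CPM to 188 and 260 CPM. Its interaction between genotype and aluminium did not pass (limma adjusted p = 0.069). AT1G26410, an FAD-binding oxidase of the berberine bridge family, was at 0.192 and 0.231 CPM without and 103 and 94.3 CPM with aluminium in stop1. The related AT1G26380 rose from 0.862 and 1.25 CPM to 192 and 146 CPM, and AT1G26390 rose from 0.527 and 0.231 CPM to 103 and 54.5 CPM. In all 3 oxidases the controls were close to 1 CPM or below and the treated libraries were far above them.

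GSTF6 and GSTF7, glutathione transferases that conjugate glutathione to toxic compounds, rose from moderate levels. GSTF6 was at 18.6 and 34.5 CPM in stop1 -Pi_pH5 and 1531 and 1509 CPM in stop1 +Al. GSTF7 was at 46.7 and 50.4 CPM and 2110 and 2046 CPM. The treated libraries of each gene lay close together and far above the controls. The pair shares 9.41% (GSTF6) and 9.19% (GSTF7) of 50-base stretches, so that a small part of the reads could belong to either gene. NAC042, a NAC transcription factor, rose from 1.34 and 1.48 CPM to 159 and 144 CPM. OCT1, an organic cation and carnitine transporter, rose from 1.29 and 1.62 CPM to 157 and 166 CPM, and PXMT1, a methyltransferase, from 1.77 and 1.62 CPM to 163 and 134 CPM. YLS9 (also known as NHL10), a marker of the response to microbial patterns, rose from 4.88 and 10.4 CPM to 341 and 329 CPM. PRX52, a peroxidase, and AT1G26240, an extensin-like wall protein, completed the group with log2 fold changes of 5.42 and 4.84.

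**Figure D2:**
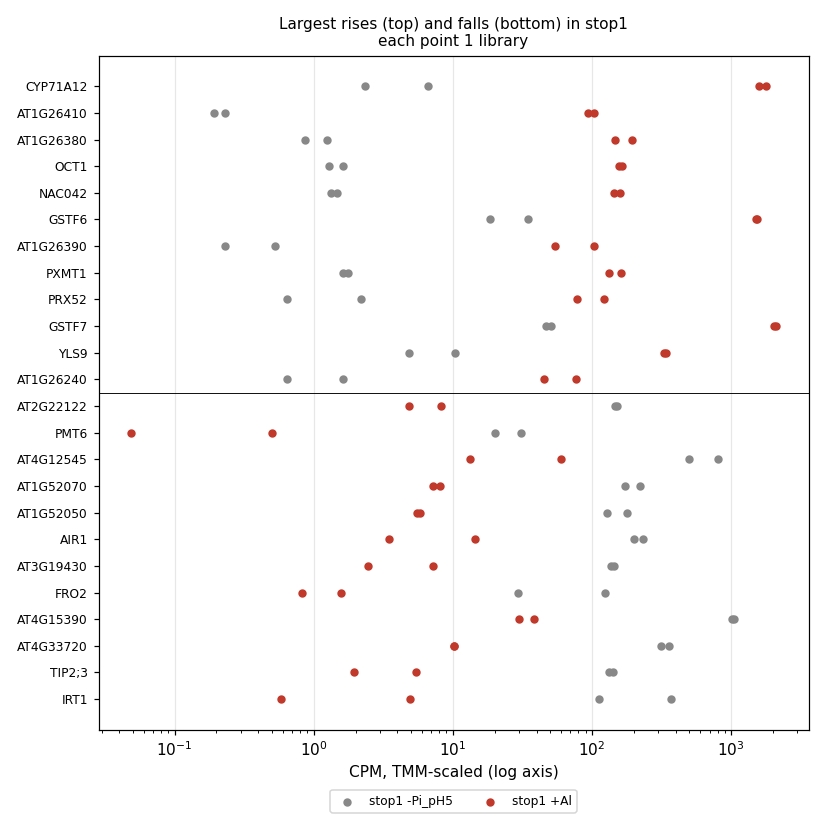
CPM on a log axis (x) of the 12 genes with the largest rise (top) and the 12 with the largest fall (bottom) in stop1 (y axis), with 1 point per library, grey for -Pi_pH5 and red for +Al. Grey and red points do not overlap for any of the genes, and the grey points of IRT1 (369 and 113 CPM) and FRO2 (124 and 29.4 CPM) lie far apart.

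WRKY transcription factors bind the W box, with the core TTGAC, in promoters of many defence genes. The search took this core alone, whatever base followed it, so that a match need not be a full W box. In the 250 bases before the annotated gene start (RefSeq annotation of the TAIR10.1 build), 11 of these 12 genes hold TTGAC on 1 strand or the other (91.7%), against 45.4% of the 20413 promoters of genes tested. The share was 50.3% among all upregulated and 47.8% among all downregulated genes. The 12 include the 3 related oxidases and the glutathione transferase pair, so that their promoters may not be independent. The core occurs at 2 or more places in 5 of the 12 (41.7%, against 14.3% of all promoters). The stretches with the core are shown for the glutathione transferase pair, for both camalexin P450 genes, for NAC042 and for the gene with the most matches, each 5′ to 3′ on the strand of the gene, with TTGAC or its reverse complement GTCAA in capitals.
GSTF6 (chr1:662550-662604, minus strand): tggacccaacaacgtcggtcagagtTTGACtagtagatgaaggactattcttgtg
GSTF7 (chr1:660006-660060, minus strand): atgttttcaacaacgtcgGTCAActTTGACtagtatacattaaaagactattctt
CYP71A12 (chr2:13101444-13101498, minus strand): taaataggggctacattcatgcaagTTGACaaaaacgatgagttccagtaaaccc
CYP71A13 (chr2:13112087-13112157, minus strand): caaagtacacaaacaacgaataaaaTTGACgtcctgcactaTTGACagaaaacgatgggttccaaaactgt
NAC042 (chr2:17882686-17882757, minus strand): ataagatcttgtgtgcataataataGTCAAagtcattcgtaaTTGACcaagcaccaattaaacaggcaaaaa
AT1G26380 (chr1:9128569-9128672, minus strand): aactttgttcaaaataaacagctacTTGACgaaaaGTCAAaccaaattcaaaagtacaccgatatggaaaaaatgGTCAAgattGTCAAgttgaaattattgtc
AT1G26380 holds 4 matches in its 250 bases, GSTF7 holds 3 and GSTF6 holds 1. The stretch of GSTF7 shows 2 of its 3 matches, and that of CYP71A12 shows 1 of its 2. Among the same 12 promoters, the motif bound by the DNA damage regulator SOG1 (CTT and AAG at a fixed spacing) was found in 0 (all promoters 9.19%) and the heat shock element core GAANNTTC in 3 (25%, all promoters 9.39%). A match describes the letters of the window and shows no binding.

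Camalexin, the main phytoalexin of Arabidopsis, is made from tryptophan through indole-3-acetaldoxime, which also feeds the indole glucosinolates. Of 9 measured genes of these routes 7 rose and 0 fell (limma, 0 at an unadjusted p below 0.05 and 0 with edgeR or DESeq2), with a median log2 fold change of 2.47 beside -0.0036 over all genes. CYP79B2, which makes indole-3-acetaldoxime, was at 272 and 204 CPM in stop1 -Pi_pH5 and 940.2 and 959 CPM in stop1 +Al. PAD3, the final enzyme of camalexin synthesis, rose from 32.7 and 32.4 CPM to 214 and 160.5 CPM. CYP71A13, which acts beside CYP71A12, had 2 reads in both control libraries together and 1293 in the treated ones, a ratio of 649 with a 95% interval of 179 to 5360 for counting error only. Of the 50-base stretches of CYP71A13 20.3% occur elsewhere. MYB51 and MYB122, regulators of indole glucosinolate synthesis, rose by 2.88 and 2.77 on the log2 scale. CYP83B1, which directs indole-3-acetaldoxime to glucosinolates, was at 315 and 258 CPM without and 341 and 289.6 CPM with aluminium, with overlapping media, and SUR1, next on that route, had a log2 difference of 0.29 (adjusted p = 0.0865). ASA1, a subunit of anthranilate synthase at the entry to tryptophan synthesis, rose from 54.5 and 50 CPM to 294 and 265 CPM.

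Glutathione transferases were upregulated in 21 of 45 cases (46.7%, against 15.4% of all genes) and downregulated in 7 (15.6%, all genes 15.6%). Their log2 fold changes ran from -4.13 to 5.85. GSTU22 rose from 60.3 and 58.3 CPM to 478 and 480.5 CPM and GSTU10 from 9.72 and 10.2 CPM to 75.6 and 69.8 CPM. GSTF14 and GSTU27 moved the other way, GSTF14 from 68.3 and 29.2 CPM to 2.48 and 0.971 CPM and GSTU27 from 117 and 111 CPM to 43.9 and 36.2 CPM. Of 21 antioxidant enzymes 8 rose (38.1%, all genes 15.4%) and 3 fell (14.3%, all genes 15.6%). CAT3, a catalase that breaks down hydrogen peroxide, rose from 76 and 53.6 CPM to 248 and 249 CPM. APX1, the main cytosolic ascorbate peroxidase, was at 1225 and 1102 CPM without and 2026 and 1983 CPM with aluminium. MDAR1 and GR1, which regenerate ascorbate and glutathione, rose by 0.88 and 0.68 on the log2 scale, while MDHAR fell by 1.40.

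Genes that respond to impaired mitochondria rose in 9 of 15 cases (60%, all genes 15.4%) and fell in 0 (limma, 0 at an unadjusted p below 0.05 and 0 with edgeR or DESeq2), with a median of 1.44. AOX1A, the alternative oxidase that bypasses part of the respiratory chain, was at 22 and 45.4 CPM in stop1 -Pi_pH5 and 83.9 and 91.4 CPM in stop1 +Al. NDB2, an external NAD(P)H dehydrogenase of mitochondria, rose from 86.7 and 88.1 CPM to 189 and 195 CPM. RHL41, a zinc finger protein of stress responses, and GSTU24, a glutathione transferase, rose by 2.21 and 1.54 on the log2 scale. Several members differed widely between the control replicates, as did CYP81D8, a stress-induced P450, at 1.68 and 14.1 CPM without and 53.8 and 44.4 CPM with aluminium. UGT74E2, an auxin-conjugating glucosyltransferase, was at 3.3 and 28.1 CPM and 26.9 and 46.2 CPM and did not pass the test (adjusted p = 0.265). Without stop1 -Pi_pH5 replicate 1 the number that rose was 5, and without each other library it was 9. In the endoplasmic reticulum list 6 of 12 rose (50%, all genes 15.4%) and 0 fell (limma, 0 at an unadjusted p below 0.05 and 0 with edgeR or DESeq2). BZIP60, a transcription factor of the unfolded protein response, rose from 41.6 and 50.3 CPM to 209 and 190.5 CPM, and BIP3, an inducible chaperone, from 1.2 and 1.2 CPM to 13.6 and 9.42 CPM. BZIP28, another such factor, and NAC103 rose by 1.26 and 0.80 on the log2 scale. The related chaperones BIP1 and BIP2 had log2 differences of 0.15 and 0.11 that did not pass.

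Of 34 genes with the proteasome in their RefSeq description 9 rose (26.5%, all genes 15.4%) and 0 fell (limma, 1 at an unadjusted p below 0.05 and 0 with edgeR or DESeq2). The number that rose was 15 without TMM factors, where more of all genes rose too. Without stop1 -Pi_pH5 replicate 2 the share that rose was no larger than that of all genes in that fit. The list takes in FUS12, a subunit of the COP9 signalosome, and EER5, neither of them a proteasome subunit and neither past the test. RPN1A and AT1G04810, subunits of the regulatory particle, rose by 0.80 and 0.83 on the log2 scale, and AT3G53970, an inhibitor-like protein, by 0.36. PA200, a proteasome activator, rose from 100.4 and 108 CPM to 185 and 187 CPM. Of 36 heat shock factors and chaperones 10 rose (27.8%, all genes 15.4%) and 1 fell, and 6 rose without stop1 -Pi_pH5 replicate 1, where 10.5% of all genes did. HSFA1E, HSFA3, HSF A4A and HSF3, heat shock factors, rose by 1.75, 1.96, 1.25 and 0.95 on the log2 scale. Apart from 1 chaperone gene, at 1.26 on that scale, all that rose were such factors. The gene that fell encodes a chaperone, at -0.48. Several chaperone genes that did not pass had replicate 2 far above replicate 1 in each medium. For 1 of them the levels were 0.0957 and 30.15 CPM without and 0.964 and 9.37 CPM with aluminium. Of 29 genes with an ATG or APG symbol 8 rose (27.6%, all genes 15.4%) and 2 fell, and 3 rose without stop1 -Pi_pH5 replicate 1, a share no larger than that of all genes in that fit. The symbols do not all stand for autophagy, since the list takes in APG1, APG2, APG3, APG10 and an ATG2 locus that RefSeq describes as other proteins, and APG2, a protein translocase, is among those that rose. ATG8D, which coats the autophagosome membrane, rose from 29.2 and 29 CPM to 84.9 and 77.7 CPM, and APG9 and ATG18D rose by 0.78 and 0.54 on the log2 scale.

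NAC and WRKY proteins are families of transcription factors, many of which act in stress. Of 61 NAC genes 33 rose (54.1%, all genes 15.4%) and 3 fell (4.92%, all genes 15.6%). Without stop1 +Al replicate 1 the NAC genes that rose numbered 20, where 9.96% of all genes did. Of 56 WRKY genes 20 rose (35.7%) and 13 fell (23.2%). NAC053, which activates proteasome genes, rose from 40.2 and 50.1 CPM to 140.5 and 142 CPM, and ANAC087 and NAC096 rose by 1.77 and 2.65 on the log2 scale. Of the 4 WRKY genes with the smallest p 3 fell. WRKY38 fell from 8.19 and 13.6 CPM to 0.964 and 1.36 CPM, WRKY7 fell by 1.02 and WRKY69 by 1.31 on the log2 scale, whereas WRKY28 rose from 0.479 and 0.785 CPM to 11.8 and 8.25 CPM. WRKY33, an activator of camalexin genes, rose from 41.8 and 59.8 CPM to 225 and 172 CPM. In the list of salicylate and pattern-triggered defence 4 of 7 genes rose (57.1%, all genes 15.4%) and 1 fell. CBP60G, a transcription factor of salicylate synthesis, rose from 0.957 and 1.57 CPM to 12.5 and 13 CPM, while its close relative SARD1 fell from 1.63 and 2.31 CPM to 0.597 and 0.777 CPM. FRK1, a receptor-like kinase induced by bacterial flagellin, rose by 1.94 on the log2 scale. EDS16, the isochorismate synthase of salicylate synthesis, was at 3.97 and 3 CPM without and 3.35 and 3.4 CPM with aluminium, with overlapping media.

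Hormone genes gave mixed lists. Of 9 abscisic acid genes 4 rose (44.4%, all genes 15.4%) and 0 fell (limma, 0 at an unadjusted p below 0.05 and 0 with edgeR or DESeq2). NCED3, the rate-limiting enzyme of abscisic acid synthesis under drought, rose from 0.766 and 2.08 CPM to 33.3 and 31.5 CPM, and HAI1, a phosphatase of the pathway, from 0.67 and 2.49 CPM to 22.9 and 13.7 CPM. ABI1 and ABI2, phosphatases that repress the pathway, rose by 0.50 and 1.31 on the log2 scale. RAB18, a response gene of abscisic acid, was at 0.0957 and 2.26 CPM and 0.688 and 6.5 CPM and did not pass, with replicate 2 the higher one in each medium. Of 15 ethylene genes 4 rose and 4 fell (26.7% each, all genes 15.4% and 15.6%), and 2 fell without stop1 -Pi_pH5 replicate 2 or without stop1 +Al replicate 1. The 4 that rose, ACS2, ACS6, ACS7 and ACS8, encode ACC synthases, which make the ethylene precursor, with log2 fold changes of 1.72, 1.39, 1.82 and 1.47. ACO1, an ACC oxidase that turns the precursor into ethylene, fell by 1.57, and AT1G77330, of the oxygenase family of ACC oxidases, by 0.97. The 4 that fell also include another ACC synthase gene, at -0.98 on the log2 scale. Of 13 genes of auxin synthesis and transport 5 rose (38.5%, all genes 15.4%) and 3 fell (23.1%, all genes 15.6%). Among auxin synthesis genes, TAA1 and TAR2, which make indole-3-pyruvate, fell by 0.94 and 1.24, while YUC8, which acts on it, rose by 1.20. Other genes of the YUC family went both ways, with log2 fold changes from -0.81 to 0.81.

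Suberin is a lipid polyester deposited in walls of the endodermis, where it restricts the passage of water and solutes. All 12 measured suberin genes rose in stop1 (100%, against 15.4% of all genes), with a median of 1.98, and all 12 did so without each compared library in turn. Their sum was 482.6 and 555.3 CPM in stop1 -Pi_pH5 and 2015 and 1956 CPM in stop1 +Al. FAR4, a fatty acid reductase, rose by 1.97 on the log2 scale. CYP86A1, the fatty acid hydroxylase of root suberin, was at 127 and 133 CPM in stop1 -Pi_pH5 and 598 and 604 CPM in stop1 +Al. GPAT5, an acyltransferase that joins monomers to glycerol, rose from 19.2 and 20.8 CPM to 94.4 and 95.2 CPM. ABCG6, a transporter needed for the suberin barrier, rose from 21.6 and 38 CPM to 199.7 and 201 CPM. The media were far apart and the replicates close in all 3, apart from the controls of ABCG6. MYB41, a regulator of suberin synthesis, rose from 0.574 and 1.8 CPM to 5.64 and 3.79 CPM. The smallest change was that of RWP1, which adds ferulate to the polymer, at 0.91 on the log2 scale.

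The Casparian strip, the lignin ring of the same cell layer, was represented by 9 genes, of which 5 fell (55.6%, all genes 15.6%) and 0 rose (limma, 1 at an unadjusted p below 0.05, 0 with edgeR and 1 with DESeq2). CASP1, a scaffold protein of the strip, fell from 94.3 and 108 CPM to 52.4 and 42.5 CPM, and ESB1, a dirigent-like protein of which 83.8% is shared with other genes, from 109 and 116 CPM to 70.9 and 60.2 CPM. CASP2, a further scaffold protein, fell from 31.9 and 32 CPM to 16.7 and 12.3 CPM, and PER64, a peroxidase of the strip, by 0.82 on the log2 scale. MYB36, which activates the strip genes, was at 18.7 and 19.7 CPM and 19.4 and 14.4 CPM, with overlapping media. Callose synthases, which make a wall glucan, rose in 6 of 10 cases (60%, all genes 15.4%) and fell in 1, with 3 rising without stop1 -Pi_pH5 replicate 1, without stop1 -Pi_pH5 replicate 2 or without stop1 +Al replicate 1. GSL05, the callose synthase of wounds and infection sites, rose from 68.1 and 56.1 CPM to 141 and 154 CPM, and GSL8 and GSL10 rose by 1.03 and 1.09 on the log2 scale. CALS1 was the member that fell, from 199.5 and 204 CPM to 41.7 and 35.8 CPM.

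**Figure D3:**
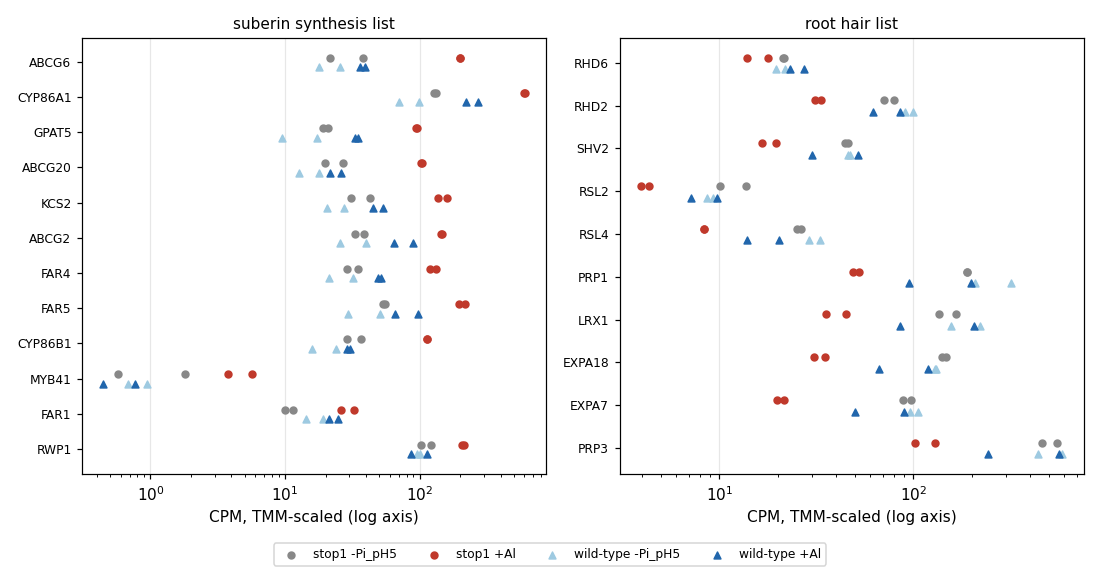
CPM on a log axis (x) of the 12 suberin genes (left) and 10 root hair genes (right), with 1 point per library, circles for stop1 (grey -Pi_pH5, red +Al) and triangles for wild-type (light blue -Pi_pH5, dark blue +Al). The red circles lie above both grey circles for each suberin gene and below both for each root hair gene.

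Neither medium held Pi, and 17 of 23 phosphate starvation genes rose with aluminium (73.9%, all genes 15.4%) and 1 fell, with a median of 0.78. The levels of these genes in a medium with Pi were not compared here. SPX3, a repressor of phosphate signalling that starvation induces, was at 0.67 and 1.06 CPM in stop1 -Pi_pH5 and 25 and 19 CPM in stop1 +Al. PEPC1 (also known as PECP1), a phosphatase of phosphocholine and phosphoethanolamine, rose from 1.1 and 0.877 CPM to 41.3 and 25.6 CPM. PAP17, an acid phosphatase, rose from 20.11 and 19.6 CPM to 115 and 103 CPM. SRG3 and PS2, which RefSeq describes as a senescence-related gene and an inorganic pyrophosphatase, rose by 1.90 and 2.65 on the log2 scale. The transporter genes went separate ways. PHT1;1, a main phosphate uptake transporter, fell from 572 and 473 CPM to 190.5 and 153 CPM, although 42.4% of its 50-base stretches occur elsewhere. PHT1;4, also an uptake transporter, was at 191 and 189.9 CPM without and 239.7 and 211 CPM with aluminium and did not pass (adjusted p = 0.432). PHT1;5, which moves phosphate between organs, had 2 reads in both controls together and 63 in the treated libraries, a ratio of 31.6 with a counting interval of 8.4 to 267. LPR1, a ferroxidase of the root's response to low phosphate, rose by 0.57 and its homologue LPR2 by 0.63 on the log2 scale.

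Iron uptake genes were among the largest falls. In the root epidermis the transcription factor FRU (also known as FIT) activates FRO2, which reduces ferric iron, and IRT1, which imports it. IRT1 was at 369 and 113 CPM in stop1 -Pi_pH5 and 4.91 and 0.582 CPM in stop1 +Al, an 87.7-fold fall of the mean (log2 fold change -6.07 ± 0.51 SE, n = 2 per medium, limma adjusted p = 1.67e-07). FRO2 fell from 124 and 29.4 CPM to 1.56 and 0.825 CPM. In both genes replicate 1 was the higher control by several-fold, yet both treated libraries were below both controls. FRU fell from 59.3 and 41.9 CPM to 7.89 and 7.86 CPM. Of 28 iron deficiency genes 15 fell (53.6%, against 15.6% of all genes) and 1 rose, with a median of -1.11. BHLH100, a partner of FRU, was at 2.68 and 2.08 CPM without aluminium and had no reads with it, at least 33.5-fold lower against a floor of 3 reads over the group. NAS1, which makes the metal chelator nicotianamine, fell from 176 and 126 CPM to 16 and 4.56 CPM. IREG2, a vacuolar metal transporter of the root, fell from 25.7 and 20.8 CPM to 2.75 and 2.33 CPM. Of 6 iron storage genes 1 rose and 1 fell (16.7% each, close to the 15.4% and 15.6% of all genes). These were AT3G25190 and AT1G76800, vacuolar iron transporter-like genes, at 0.85 and -1.30 on the log2 scale. The ferritins FER1, FER3 and FER4 had log2 differences of 0.17, -0.36 and 0.49, none of which passed.

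Nitrate genes fell in 5 of 7 cases (71.4%, all genes 15.6%) and rose in 0 (limma, 0 at an unadjusted p below 0.05 and 0 with edgeR or DESeq2), with a median of -2.13. NRT1.1, the nitrate transporter and sensor of the root, was at 1415 and 1197 CPM in stop1 -Pi_pH5 and 125 and 96.3 CPM in stop1 +Al. NIA1, a nitrate reductase, fell from 535 and 683 CPM to 91 and 55.3 CPM, and NIR1, the nitrite reductase that follows it, from 1042 and 935 CPM to 252 and 199 CPM. NRT2:1, a high-affinity nitrate transporter, fell by 3.27 on the log2 scale. NIA2, the other nitrate reductase gene, was at 848 and 1011 CPM and 656 and 636 CPM, a difference that did not pass (adjusted p = 0.235). In sulfur nutrition 4 of 12 genes rose (33.3%, all genes 15.4%) and 2 fell (16.7%, all genes 15.6%), and 2 rose without stop1 -Pi_pH5 replicate 2 or without stop1 +Al replicate 1. SULTR1;2, the main sulfate uptake transporter of the root, fell from 260.5 and 154 CPM to 97.6 and 50.9 CPM, and SULTR1;1, its homologue, fell by 2.21 on the log2 scale. APR1 and APR3, which reduce activated sulfate, rose by 0.96 and 0.82 on that scale, and AT5G26220, a ChaC-like protein, by 1.77.

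Aquaporins, the water channels of the plasma membrane and tonoplast, fell in 17 of 25 cases (68%, against 15.6% of all genes) and rose in 4 (16%, all genes 15.4%). Their summed level was 7705 and 8009 CPM in stop1 -Pi_pH5 and 2194 and 1954 CPM in stop1 +Al. PIP1A, of the plasma membrane, fell from 1213 and 1173 CPM to 109 and 73.5 CPM. PIP2B fell from 1177 and 1388 CPM to 139.9 and 106 CPM, although 19.6% of its 50-base stretches occur elsewhere, and PIP2A fell by 2.00 on the log2 scale. Among the channels of the tonoplast, TIP2;2 fell from 998 and 943 CPM to 64 and 38.6 CPM and TIP2;3 from 133 and 141 CPM to 5.42 and 1.94 CPM. In PIP1A, PIP2B, TIP2;2 and TIP2;3 the treated libraries were far below the controls. PIP1C was at 227 and 203 CPM without and 224 and 193 CPM with aluminium, with overlapping media. NIP4;2 rose from 1.15 and 0.97 CPM to 7.67 and 6.6 CPM, and the number of aquaporins that rose was 2 without stop1 -Pi_pH5 replicate 2 or without a +Al replicate. Plasma membrane proton pumps energise uptake. Of 9 pump genes 2 fell (22.2%, all genes 15.6%) and 1 rose (11.1%, all genes 15.4%). HA2, a main pump of roots, fell from 1898 and 1670 CPM to 733 and 650.3 CPM, and HA7 from 99.2 and 93 CPM to 28.4 and 29.2 CPM. HA1 was at 813 and 813 CPM and 742 and 739 CPM and did not pass (adjusted p = 0.623), while HA4 rose by 1.53 on the log2 scale.

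All 10 root hair genes fell (100%, against 15.6% of all genes), with a median of -1.70, and 9 or 10 fell without single libraries. In bulk root tissue, fewer cells of a type and less RNA per cell cannot be told apart. The sum of the 10 genes was 1185 and 1339 CPM in stop1 -Pi_pH5 and 357.9 and 320.2 CPM in stop1 +Al. EXPA7, an expansin of growing hairs, fell from 88.9 and 97.1 CPM to 21.6 and 19.9 CPM. RSL4, the transcription factor that sets hair growth, fell from 25.2 and 26.3 CPM to 8.35 and 8.3 CPM. EXPA18, an expansin like EXPA7, and RHD2, an NADPH oxidase needed for hair growth, fell by 2.11 and 1.19 on the log2 scale. RHD6, which acts before RSL4 in hair initiation, was at 21.5 and 21.4 CPM without and 13.9 and 17.8 CPM with aluminium, the smallest fall of the list. Root cap regulators were also lower, with SMB, which ends division in cap cells, at 11.4 and 13.2 CPM and 4.59 and 5.73 CPM and NAC070, which promotes cap maturation, at 10.7 and 13.9 CPM and 2.8 and 3.45 CPM. NAC015, another cap regulator, fell by 0.86 on the log2 scale. Of the 4 root cap genes 3 fell (75%, all genes 15.6%) and 0 rose (limma, 0 at an unadjusted p below 0.05 and 0 with edgeR or DESeq2), their sum was 35.5 and 41.5 CPM in stop1 -Pi_pH5 and 15.3 and 16.5 CPM in stop1 +Al, and the part of cell composition in these results was not tested.

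Wall protein families held members that fell and members that rose. Of 25 xyloglucan endotransglucosylase/hydrolases, which cut and rejoin a wall polymer, 11 fell (44%, all genes 15.6%) and 7 rose (28%, all genes 15.4%). XTH12 fell from 115 and 118 CPM to 13.4 and 9.95 CPM, whereas XTH11 rose from 0.814 and 1.06 CPM to 11.2 and 10.5 CPM, and XTH14 and XTH17 fell by 2.26 and 3.03 on the log2 scale. Of 42 arabinogalactan proteins 16 fell (38.1%) and 7 rose (16.7%). FLA13, a fasciclin-like member, fell from 30.2 and 35 CPM to 3.26 and 2.81 CPM, AGP14 and AGP24 fell by 2.71 and 2.44 on the log2 scale, and AGP1 rose from 87.1 and 86.2 CPM to 260.1 and 264 CPM. Of 49 genes listed under pectin methylesterase 19 fell (38.8%) and 10 rose (20.4%). The list takes in inhibitors of the enzyme, such as UNE11 and AT1G23205, so that enzymes and inhibitors are counted together. The 4 with the smallest p, PMEPCRF, AT5G04960, UNE11 and AT1G23205, fell by 2.04, 2.89, 1.43 and 2.13. Expansins fell in 7 of 17 cases (41.2%) and rose in 4, and 0 rose without stop1 +Al replicate 2. EXPA11 and EXPA9 fell by 1.34 and 1.13 beside EXPA7 and EXPA18. Class III peroxidases, which oxidise wall phenolics, fell in 22 of 56 cases (39.3%) and rose in 13 (23.2%), and their median of -0.0342 turned to 0.0049 without TMM factors. RCI3 fell from 432 and 415 CPM to 106 and 119 CPM, and AT4G36430 rose from 20.5 and 17.8 CPM to 403 and 294 CPM and AT5G06730, also a peroxidase, by 3.26 on the log2 scale. Of 8 NADPH oxidases, which make superoxide at the plasma membrane, 4 fell (50%) and 2 rose (25%, and 1 gene when any 1 compared library was left out), with RBOHB at 90.6 and 142 CPM without and 7.89 and 10.4 CPM with aluminium. AT4G25090, RHD2 and AT4G11230, of the same family, fell by 2.62, 1.19 and 0.97 on the log2 scale. RBOHD, the oxidase of immune responses, was at 132 and 132 CPM and 163 and 156 CPM and did not pass (adjusted p = 0.392).

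The remaining genes of the 12 largest falls are less well characterised. AT4G15390, annotated as an acyltransferase, fell from 1012 and 1055 CPM to 38.6 and 29.9 CPM, and AT4G33720, a cysteine-rich secretory protein, from 313 and 356 CPM to 10.2 and 10.14 CPM. PMT6, of the major facilitator superfamily, had 419 and 672 reads without and 11 and 1 with aluminium. AIR1 and AT4G12545, neighbouring lipid-transfer-like genes, fell from 200.4 and 235 CPM and 498 and 805 CPM to 14.5 and 3.5 CPM and 60.3 and 13.4 CPM. Of their 50-base stretches 35.4% (AIR1) and 48.4% (AT4G12545) occur in other genes as well. The lectin genes AT1G52050 and AT1G52070 fell by 4.51 and 4.50 on the log2 scale, AT3G19430, similar to late embryogenesis abundant proteins, by 4.73, and the uncharacterised AT2G22122 by 4.35.

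Genes described in RefSeq as ribosomal proteins, some of them of families found in organelles, were lower in 106 of 234 cases (45.3%, against 15.6% of all genes) and higher in 0 (limma, 0 at an unadjusted p below 0.05 and 0 with edgeR or DESeq2), with a median of -0.42. This count rested on single libraries, with 20 lower without stop1 -Pi_pH5 replicate 1, where 10.7% of all genes were lower and the share of the list was below that, 46 without stop1 +Al replicate 1, 41 without stop1 +Al replicate 2 and 93 without stop1 -Pi_pH5 replicate 2. Their summed level was 68120 and 58020 CPM in stop1 -Pi_pH5 and 44730 and 46450 CPM in stop1 +Al, and the media did not overlap. By smallest p, AT4G26060, AT5G60670, AT3G06320 and AT1G77750 fell by 1.00, 0.83, 1.04 and 0.85 on the log2 scale. The deepest fall, of AT2G40205 (ribosomal protein L41 family), was from 135 and 106 CPM to 51.5 and 20.6 CPM.

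Genes of dividing cells showed few changes. Of 18 mitotic genes 1 rose (0 without stop1 -Pi_pH5 replicate 2 or +Al replicate 1), the cyclin gene CYCB1;4, from 25.6 and 22.7 CPM to 35.8 and 32.2 CPM, and 0 fell (limma, 0 at an unadjusted p below 0.05 and 0 with edgeR or DESeq2). Of 12 DNA replication genes 0 rose and 0 fell (limma, 0 higher and 2 lower at an unadjusted p below 0.05, and 0 with edgeR or DESeq2). In the DNA damage list 1 of 27 genes rose (3.7%, all genes 15.4%) and 2 fell (7.41%, all genes 15.6%), with PARP2, a poly(ADP-ribose) polymerase, falling from 12.6 and 13.9 CPM to 6.33 and 6.6 CPM. SYN2, a cohesin subunit, fell by 0.55 and AGO2, an Argonaute protein, rose by 0.70 on the log2 scale. The SOG1 motif is found before 8 of these 27 genes (29.6%, all promoters 9.19%). SOG1 itself, the central regulator of that response, had a log2 difference of -0.03 (adjusted p = 0.876). Stem cell regulators were mixed, with BBM rising from 5.65 and 4.85 CPM to 14.3 and 14.5 CPM and SCR, which patterns the endodermis, falling from 54.1 and 55 CPM to 41.5 and 41.5 CPM. AIL6, a relative of BBM, rose by 0.86 on the log2 scale and RGF3, a root growth factor peptide, fell by 0.85. Of 11 xylem genes 0 rose and 0 fell (limma, 0 in each direction at an unadjusted p below 0.05 and 0 with edgeR or DESeq2).

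Hypoxia genes had a median of -1.22 without a single call among 9 genes (limma, 1 lower and 0 higher at an unadjusted p below 0.05, with 1 lower by edgeR's likelihood ratio test and 0 by its quasi-likelihood test or DESeq2). ADH1, the alcohol dehydrogenase of fermentation, was at 1217 and 2518 CPM without and 355 and 829 CPM with aluminium. The list summed to 2841 and 5657 CPM in stop1 -Pi_pH5 and 1113 and 2005 CPM in stop1 +Al, and replicate 2 was the higher one in each medium.

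In wild-type, aluminium upregulated 538 genes (2.63%) and downregulated 280 (1.37%), fewer than in stop1, though the difference between these numbers was not itself tested. Of the genes upregulated in wild-type 74.4% were upregulated in stop1 as well, and of those downregulated 92.9% were downregulated in stop1, whereas 12.7% and 8.14% of the stop1 genes were called in wild-type. The genotypes were called in opposite directions for 17 genes. In wild-type, 211 genes were upregulated without +Al replicate 2, and 76 were downregulated without -Pi_pH5 replicate 1, 97 without -Pi_pH5 replicate 2 and 101 without +Al replicate 2. The biological coefficient of variation was 0.131 in stop1 and 0.189 in wild-type, so that replicates lay closer together in stop1. The limma counts given first rest on 1 spread per gene, the same for both genotypes. The median size of the log2 fold change over all genes was 0.28 in stop1 and 0.16 in wild-type. Genes upregulated in stop1 had a median log2 fold change of 0.82 there and 0.26 in wild-type, and downregulated genes -0.84 and -0.29.

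The difference in response between the genotypes was tested as an interaction, which uses the stop1 libraries again. It was above 0, meaning a higher log2 fold change in stop1, for 592 genes (2.89%) and below 0 for 771 (3.77%). Of the genes upregulated in stop1 583 had an interaction above 0, and of those downregulated 698 had one below 0. Without wild-type +Al replicate 1 the genes above 0 numbered 270, without wild-type +Al replicate 2 they numbered 973, and without stop1 +Al replicate 2 the genes below 0 numbered 464. By list, an interaction below 0 was found for 12 of 25 aquaporins, 7 of 10 root hair genes, 7 of 28 iron deficiency genes and 3 of 7 nitrate genes. It was also found for 9 of 25 xyloglucan endotransglucosylase/hydrolases, 12 of 42 arabinogalactan proteins and 15 of 56 class III peroxidases. In wild-type the root hair genes summed to 1224 and 1574 CPM without and 1368 and 676.1 CPM with aluminium, so that the +Al replicates lay far apart. An interaction above 0 was found for 4 of 12 suberin, 4 of 9 camalexin and glucosinolate, 4 of 9 abscisic acid, 10 of 61 NAC and 8 of 45 glutathione transferase genes. The glutathione transferases GSTF14, GSTU14 and GSTU27 had one below 0, at -4.77, -1.72 and -1.41. The 37 photosynthesis genes summed to 654.5 CPM in wild-type +Al replicate 1 and to 102.7 to 230.2 CPM in the other wild-type libraries, and their part in these counts was not tested. In wild-type, NRT1.1 was at 1568 and 1305 CPM without and 1287 and 1124 CPM with aluminium, and its interaction was -3.31 on the log2 scale (adjusted p = 1.63e-06, limma).

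**Figure D4:**
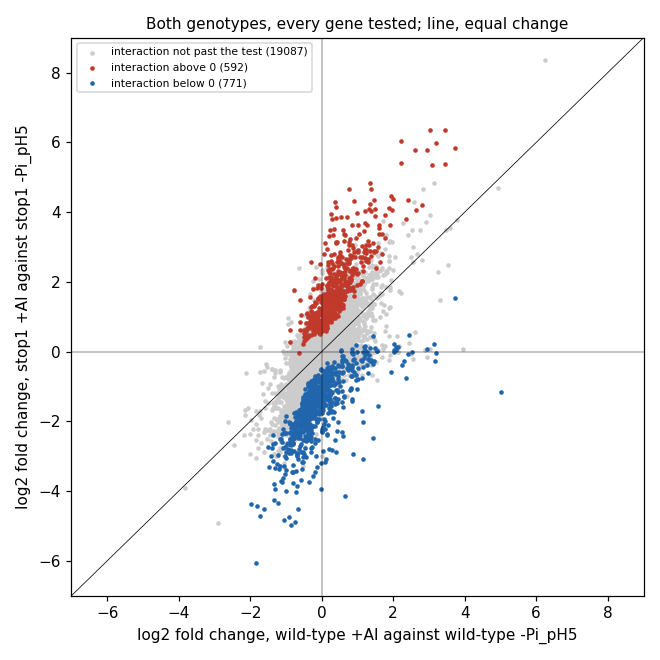
Log2 fold change of +Al against -Pi_pH5 in stop1 (y axis) and in wild-type (x axis) for each of the 20450 genes, red where the interaction was above 0 (592 genes), blue where it was below 0 (771 genes) and grey elsewhere, with a diagonal line of equal change. Red points lie above the line and blue points below it, and HAK5 is the blue point at 5.01 in wild-type and -1.15 in stop1.

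The list of aluminium tolerance genes and STOP1 targets was lower in stop1 with aluminium in 8 of 23 cases (34.8%, all genes 15.6%) and higher in 3 (13%, all genes 15.4%, median -0.23), whereas in wild-type 10 were upregulated and 0 downregulated (median 0.55). ALMT1 had 2 and 0 reads in stop1 -Pi_pH5 and 1 and 0 reads in stop1 +Al, at the limit of detection, and no fold is given. In wild-type ALMT1 was at 23.1 and 21.6 CPM without and 243 and 187 CPM with aluminium. AT1G51340, a MATE efflux transporter, was at 6.17 and 6.14 CPM and 8.22 and 6.55 CPM in stop1 (log2 fold change 0.22 ± 0.21 SE, limma adjusted p = 0.48). In wild-type it rose from 8.56 and 10 CPM to 70.2 and 116 CPM. The interaction was -3.23 for ALMT1 and -2.93 for AT1G51340 on the log2 scale. For ALMT1 it passed with limma (adjusted p = 6.46e-06) and not with edgeR's quasi-likelihood test (adjusted p = 0.339), its likelihood ratio test (0.141) or DESeq2 (0.145).

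The members that moved in opposite directions in the genotypes were HAK5, TDT and DGR2. HAK5, a high-affinity potassium transporter, fell from 7.08 and 5.91 CPM to 3.12 and 1.75 CPM in stop1 and rose from 1.83 and 3.73 CPM to 93 and 147 CPM in wild-type. Its fall in stop1 did not pass without stop1 +Al replicate 2 (adjusted p = 0.0605). TDT, the malate transporter of the tonoplast, fell from 17.4 and 15.4 CPM to 4.22 and 2.52 CPM in stop1 and rose from 25.7 and 35.6 CPM to 56 and 82.9 CPM in wild-type. DGR2, a DUF642 wall protein, fell from 53 and 55.3 CPM to 28.9 and 34.5 CPM in stop1 and rose from 232 and 244 CPM to 1174 and 1292 CPM in wild-type. The interaction was -6.16 for HAK5, -3.17 for TDT and -3.13 for DGR2.

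Other members rose in wild-type and did not pass in stop1. ALS3, an ABC transporter-like protein of aluminium tolerance, was at 7.85 and 8.73 CPM and 6.2 and 5.97 CPM in stop1 and rose from 8.56 and 8.49 CPM to 16.9 and 28.1 CPM in wild-type. GDH1, a glutamate dehydrogenase, had a log2 difference of -0.26 in stop1 (adjusted p = 0.0858) and 1.39 in wild-type. For GDH2 these were 0.03 and 0.69, and for AT5G01720, an RNI-like protein, -0.23 and 1.09. The interaction passed for ALS3, GDH1 and AT5G01720 and not for GDH2 (adjusted p = 0.155). CIPK23, a kinase that regulates potassium and nitrate uptake, was at 3.78 and 3.05 CPM and 4.31 and 4.56 CPM in stop1 and at 143 and 168 CPM and 162 and 154 CPM in wild-type, a gap between genotypes in both media. AT5G22890, a C2H2 zinc finger protein, had 5 and 1 reads in stop1 -Pi_pH5 and none in stop1 +Al, against 40.9 and 45.4 CPM and 50.4 and 64.7 CPM in wild-type.

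Upregulated in stop1 were PGIP1, NIP1;2 and ABCB27. PGIP1, an inhibitor of pectin-degrading enzymes, rose from 7.28 and 12.7 CPM to 36.1 and 31 CPM in stop1 and rose from 67.4 and 94.3 CPM to 245 and 579.6 CPM in wild-type, and 84% of its 50-base stretches are shared with a gene on the opposite strand. NIP1;2, which takes up aluminium malate, rose from 11.8 and 12.3 CPM to 34.6 and 34.6 CPM in stop1. ABCB27 (also known as ALS1), a tonoplast transporter of aluminium, rose from 41.2 and 39.3 CPM to 69.4 and 67 CPM. BCB, a blue copper protein, was at 0.67 and 18.6 CPM and 26 and 29.6 CPM and did not pass (adjusted p = 0.0729), its control replicates being far apart. XTH17, which acts on xyloglucan, fell from 81.1 and 83.9 CPM to 8.12 and 10.4 CPM, and XTH15, a related enzyme, ABCI17, an ABC transporter ATPase, and WRKY47 fell by 1.08, 1.35 and 0.92 on the log2 scale. STOP1 fell by 0.61 (adjusted p = 0.00958), a call lost without stop1 -Pi_pH5 replicate 2 (adjusted p = 0.115) or without stop1 +Al replicate 1 (0.0874). The log2 differences of WRKY46, EMB2757 and XTH31, 0.40, 0.15 and -0.46, did not pass.

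**Figure D5:**
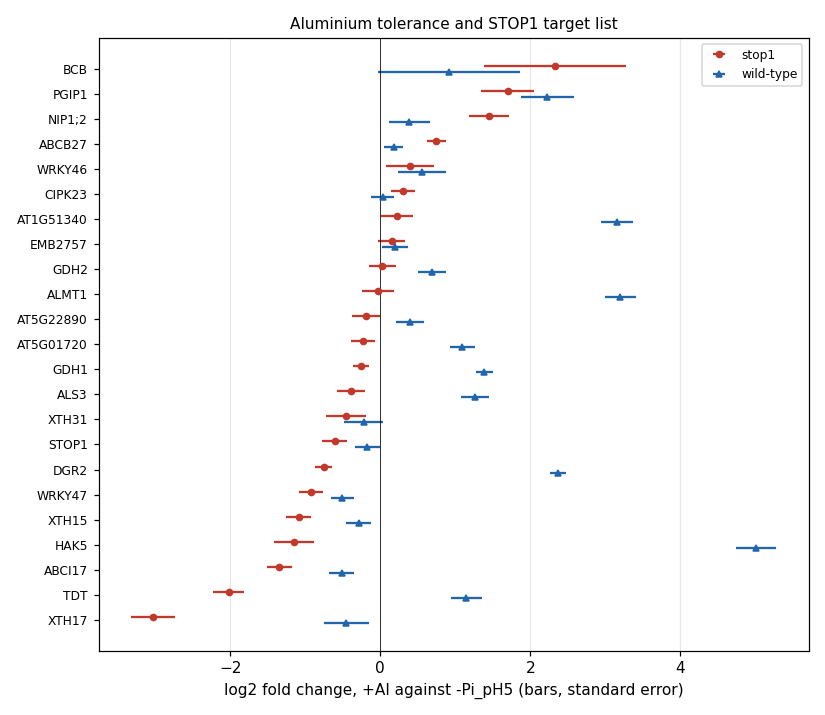
Log2 fold change of +Al against -Pi_pH5 (x axis, bars show the standard error from the fit over all 24 libraries, n = 2 per medium) for the 23 measured members of the aluminium tolerance list (y axis), red circles for stop1 and blue triangles for wild-type. HAK5, TDT and DGR2 lie below 0 in stop1 and above 0 in wild-type, and ALMT1 and AT1G51340 lie near 0 in stop1 and above 3 in wild-type.

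The 5 genes in each direction with the smallest interaction p included peroxidases, a receptor kinase and a proton pump, beside AT1G26410, DGR2 and HAK5. PA2, a peroxidase, rose from 1.44 and 1.39 CPM to 50.4 and 35 CPM in stop1 and was at 2.73 and 2.13 CPM and 2.9 and 4.27 CPM in wild-type. AT5G19880, another peroxidase, rose from 0.527 and 0.323 CPM to 40.2 and 30.1 CPM in stop1 and was at 0.141 and 0.339 CPM and 1.06 and 1.17 CPM in wild-type. AT4G19970, annotated as a sugar transferase, had no reads in stop1 -Pi_pH5 and 610 in the treated libraries together, at least 204-fold higher against a floor of 3 reads over the group. RK3, a receptor kinase, had 1 and 3 reads without and 195 and 172 reads with aluminium. With 0 to 3 reads in the controls, the interactions of RK3 and AT4G19970 passed with limma and not with edgeR or DESeq2. On the other side, ATL15, a RING-type protein, fell from 65.2 and 69.3 CPM to 6.33 and 4.27 CPM in stop1 and was at 63.9 and 64.3 CPM and 50.8 and 61.2 CPM in wild-type, and 38.7% of its 50-base stretches occur in other genes. AT4G15390, the acyltransferase among the largest falls, was at 909 and 944 CPM and 582 and 520.1 CPM in wild-type. HA7, the proton pump that fell in stop1, rose from 109 and 116 CPM to 231 and 267 CPM in wild-type.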

How the data were processed

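RNA was sequenced from root tips of 24 samples, 12 conditions of 2 replicates. Per the submitters' processing notes and methods, reads were mapped with HISAT2 (version 2.1.0) and counted with HTSeq (0.11.2). The authors deposited a normalised signal, CPM scaled with TMM factors by edgeR (3.28.0), and neither the gene filter nor the strand setting is given in the sources used here. Dividing each column by its smallest step returned whole reads for 100% of values (tolerance 0.01), which gave the depths and the reads for the count tests.

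Log2(CPM + 1) was fitted with limma (3.58.1, R 4.3.3) over all 24 libraries with 1 coefficient per condition and a mean-variance trend, and p-values were adjusted over 20450 genes. DESeq2 (1.42.0) and both edgeR (4.0.16) tests, quasi-likelihood and likelihood ratio, on the recovered reads, other scalings, pseudocounts, filters, subsets of libraries and leave-outs served as alternatives, of which the leave-outs of gene list counts were added after seeing the data. The procedure was tested on simulated data. Counting intervals and floors (3 reads over the group) cover counting error only. Each replicate is 1 pool of plants, and p-values measure the spread between such pools. In the limma fit this spread was taken over all 24 libraries, not from the compared pools alone. The SE of a gene is therefore the same in both genotypes.

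The text names the 12 largest changes in each direction, the whole aluminium list, up to 4 genes of each other list by smallest p, and the 5 genes in each direction with the smallest interaction p. Some lists have fewer than 4 named. List members that did not pass the test, and further members beyond these 4, were named after their values were seen. PSAT, a serine synthesis gene caught by the symbol pattern of the photosynthesis list, was left out of its sums after seeing the data. The lists and comparison were chosen with earlier results of these data known. Symbols, promoters and 50-base overlaps came from RefSeq TAIR10.1, with 20414 of 20450 loci matched.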

Additional observations from a re-analysis of the deposited data

Results flagged for a closer look

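The results singled out here are those whose response to aluminium differed between stop1 and wild-type by the interaction test (limma, adjusted over all genes). The interaction was above 0 for 592 genes and below 0 for 771. Values are differences of log2 fold changes, stop1 minus wild-type.

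Among the genes with the largest rise in stop1 it was 3.34 for AT1G26410, 2.91 for AT1G26380 and 3.18 for AT1G26390, the berberine bridge oxidases, and 3.82 for OCT1, 2.78 for NAC042, 2.13 for GSTF6, 1.95 for GSTF7, 2.85 for PXMT1, 3.19 for PRX52, 2.27 for YLS9 and 3.48 for AT1G26240. CYP71A12, the gene with the largest rise, is not listed, since its interaction of 2.13 did not pass. For the peroxidases PA2 and AT5G19880 the interaction was 3.75 and 3.88. For RK3 (2.75) and AT4G19970 (3.68), whose controls held 0 to 3 reads, edgeR and DESeq2 did not call it.

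Among the genes with the largest fall it was -4.22 for IRT1, -3.78 for FRO2, -4.13 for TIP2;3, -4.13 for AT4G15390, -3.80 for AT3G19430, -2.98 for AIR1, -2.62 for AT4G12545, -2.91 for AT1G52050, -3.84 for AT1G52070, -2.39 for PMT6 and -3.14 for AT2G22122. ATL15 (-3.26) and HA7 (-2.84) were among those with the smallest p.

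Of the aluminium tolerance list it was -6.16 for HAK5, -3.23 for ALMT1, -3.17 for TDT, -3.13 for DGR2, -2.93 for AT1G51340, -2.58 for XTH17, -1.65 for ALS3, -1.64 for GDH1, -1.33 for AT5G01720 and -0.83 for ABCI17. That of ABCI17 did not pass without any 1 of the 8 compared libraries (adjusted p = 0.0631 to 0.158), and that of ALMT1 did not pass with edgeR or DESeq2.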

How the results depend on the processing

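Alternatives were compared gene by gene for the 53 genes of the largest changes, the aluminium list and the smallest interaction p. Other genes named in the text were not checked in this way. None of the 53 that passed its test changed direction under an alternative, but the balance of directions over all genes did. Without TMM factors 3630 genes were upregulated and 2831 downregulated in stop1, and the list medians of class III peroxidases (-0.0342) and xylem genes (-0.0583) became 0.0049 and 0.0037. In stop1, the upregulated genes numbered 2036 to 2422 and the downregulated genes 2109 to 2443 when 1 compared library was left out, with fewer samples in the fit, edgeR's quasi-likelihood test on the recovered reads called 3054 and 3256, and all other alternatives stayed within 1.5 times the reported counts. Replicate numbers were not taken as a pairing, which would have needed every correlation of same-numbered deviations to be over 0.1. The correlation was -0.0841 in stop1 and 0.2854 in wild-type, and over 0.1 for 38 of 66 pairs of conditions (-0.3789 to 0.5236, median 0.1256). With the replicate block 3350 genes were upregulated and 3400 downregulated. In wild-type, fitting the compared libraries alone gave 96 upregulated and 38 downregulated genes, edgeR's likelihood ratio test gave 434 downregulated and DESeq2 421, and leave-outs gave 211 to 804 upregulated and 76 to 552 downregulated genes. For the interaction, edgeR's quasi-likelihood test gave 376 genes above 0, the compared libraries alone gave 385 above and 475 below 0, and leave-outs gave 270 to 973 above and 464 to 1012 below. The cause of these shifts was not tested. Of the comparisons of these 53 genes with an alternative 1200 kept their side of the threshold, 15 gained it and 20 lost it. ALMT1, at 2 reads or fewer per stop1 library, is below what this depth can resolve in that genotype.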
